A study of Homo sapiens with 12 samples.

Results

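A difference between responses was measured here: how RNA levels in A549 cells changed after knockdown of SDS3, minus how they changed after knockdown of FAM60A. A549 is an established human lung cancer cell line. All 12 arrays of the series entered, 3 in each of 4 groups: cells given FAM60A siRNA, their own cells given non-targeting siRNA, cells given SDS3 siRNA, and a separate set of cells given non-targeting siRNA. Groups were taken from the sample titles. Every group was transfected with siRNA at 50 nM and lysed 3 days later, so all of them share the transfection, and no untransfected cells were analysed here. The labels name 1 siRNA for FAM60A and 1 non-targeting siRNA, and the SDS3 siRNA is not described further in the sources used here. Effects of 1 siRNA outside its target, and the experiment in which it was used, therefore cannot be told apart from the loss of the target. Cells were plated in triplicate wells, so the p-values measure the spread between these wells, which may be technical.

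FAM60A, now named SINHCAF, and SDS3, now named SUDS3, are subunits of the SIN3 complex, a co-repressor built on a SIN3A or SIN3B scaffold. The complex carries the histone deacetylases HDAC1 and HDAC2, and DNA-binding factors such as the MAX partners MXD1 and MNT bring it to promoters. SDS3 holds the deacetylases to the scaffold and is needed for full enzyme activity, whereas FAM60A lacks a known catalytic role and has been linked to TGF-beta signalling and cell cycle genes. The question posed by the contrast is which genes respond differently, or in opposite directions, to loss of either subunit. Differences between responses compare the change within each experiment, not levels across them.

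A positive difference means that the change with SDS3 knockdown lay above the change with FAM60A knockdown, and a negative difference that it lay below; all values are log2 intensities or differences of them. A gene was called when its adjusted p (limma, Benjamini-Hochberg over all 18621 genes tested) was under 0.05. "Rose" and "fell" are used for a gene's change against its own controls when that change passed.

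Each siRNA lowered its own target. FAM60A RNA read 11.99, 11.97 and 12.01 in the FAM60A controls and 9.36, 9.12 and 9.43 after FAM60A knockdown, a fall to 15.5% of control. In the SDS3 experiment it read 11.63, 11.61 and 11.67 in controls and 11.89, 11.96 and 12.10 after SDS3 knockdown, a rise of 0.35 (adjusted p = 0.00180, limma). The arrays of knockdown and control did not overlap in either experiment, and the difference of 3.04 (SE 0.106) was the highest of all named genes. The rise of FAM60A RNA with SDS3 knockdown rested on 1 probe set, since the other probe set changed there by 0.056 and did not pass. SDS3 RNA read 10.11, 10.02 and 10.03 in the SDS3 controls and 8.48, 8.32 and 8.62 after SDS3 knockdown, 33.4% of control. After FAM60A knockdown it read 10.55, 10.50 and 10.55 against 10.57, 10.34 and 10.55, ranges that overlap, and the difference was -1.62 (SE 0.109). On the probe sets read here, the residual target RNA as a share of its own controls was thus lower for FAM60A than for SDS3. Across the alternative settings described below, the difference ran from 2.82 to 3.16 for FAM60A RNA and from -1.84 to -1.15 for SDS3 RNA. Background in these readings was not tested, and protein was not measured here.

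The experiments also differed in ways that the knockdowns do not define. The median intensity was 186 to 193 on the FAM60A arrays and 96.8 to 98.3 on the SDS3 arrays, and the summed intensity of 8 leukocyte marker genes, which A549 cells should lack, was 1134 to 1196 in the FAM60A controls and 588 to 652 in the SDS3 controls. Levels were therefore not set against each other across the experiments. As a check of the labelled cell type, the epithelial keratin gene KRT18 read a mean of 15.05 in the FAM60A controls and 14.95 in the SDS3 controls. The lung surfactant genes SFTPB and SFTPC read 8.57 and 8.76 in the FAM60A controls, where the leukocyte gene CD14 read 8.33 and the endothelial gene PECAM1 8.44, so these surfactant signals were not told apart from background; in the SDS3 controls the 4 genes read 7.54, 7.71, 7.39 and 7.45. Poly-A RNAs added to each sample as controls (24 probe sets) read higher by 0.32 on average with SDS3 knockdown and by 0.10 with FAM60A knockdown, and the 18S ribosomal RNA probe sets (3) by 0.53 and 0.28; these shifts were not tested. Hybridization controls (18 probe sets) moved by 0.078 and -0.059, and the 3' to 5' contrast of GAPDH moved by 0.0048 and 0.00072. Whether these added and ribosomal RNAs moved for a reason that also moved the genes was not tested; scaling on the poly-A controls lowers every difference by 0.22 and scaling on the hybridization controls by 0.14. Fewer cells, and less messenger RNA per cell, cannot be told apart in such bulk samples.

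Genes that changed with both knockdowns mostly moved in the same direction, and the size of the change differed for many. The difference was called for 4716 of 18621 genes, a background of 25.3%: 1861 were higher with SDS3 knockdown (9.99%) and 2855 lower (15.3%), so 39.5% of the calls were higher. The split depends on the scaling: with the arrays scaled on poly-A controls 7.58% of 2533 calls were higher, on hybridization controls 12.5% of 4303, and with all 12 arrays quantile normalized 45.8% of 4919. Of the 4716 genes, 234 (1.26% of all tested) differed by at least 2-fold, 79 higher and 155 lower. The median absolute difference over all tested genes was 0.15, against a median SE of 0.0955, and the median difference was 0.013. Across the 18621 genes the 2 changes had a Pearson r of 0.557; this describes genes measured on the same arrays, which are not independent replicates.

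**Figure D1:**
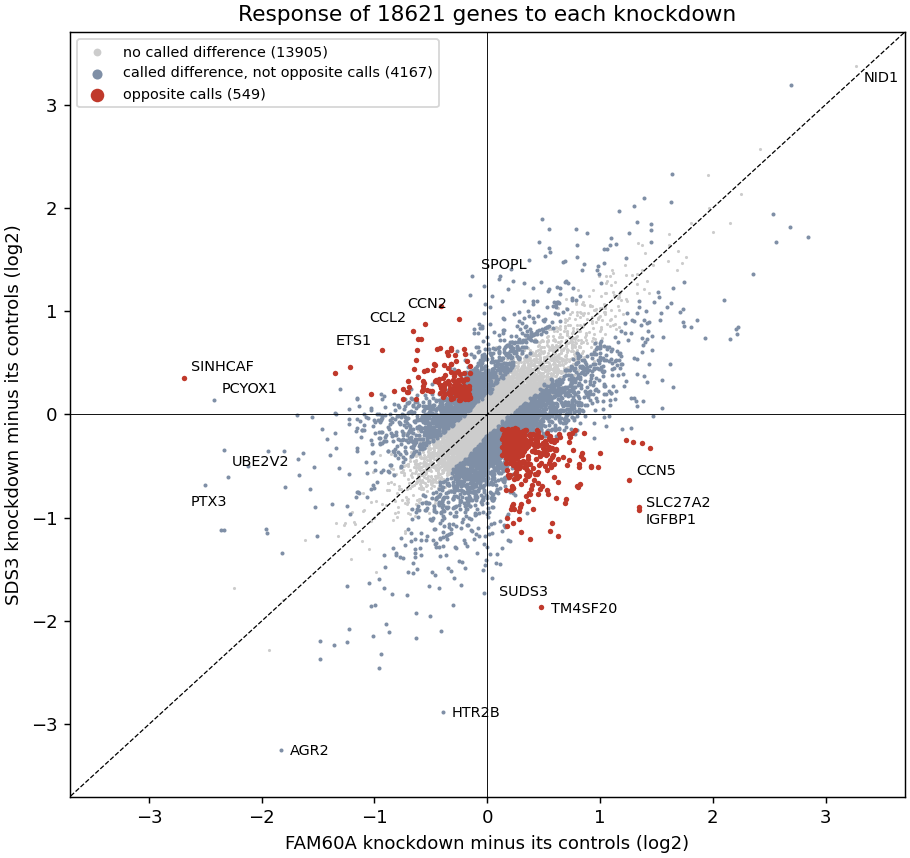
Change with FAM60A knockdown (horizontal axis, log2, mean of 3 knockdown minus mean of 3 control arrays) against change with SDS3 knockdown (vertical axis, log2) for the 18621 genes tested, with called differences in blue grey and the opposite genes (165 and 384) in red; the dashed line marks equal changes. The cloud rises along the diagonal (r = 0.557), and the opposite genes lie in the upper left and lower right of the plot.

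Most called differences were changes that passed with 1 of the knockdowns only. Of the 1861 genes that were higher with SDS3 knockdown, 682 (36.6%) fell with FAM60A knockdown and did not pass with SDS3 knockdown, and 506 (27.2%) rose with SDS3 knockdown and did not pass with FAM60A knockdown. Of the 2855 that were lower, 914 (32.0%) fell with SDS3 knockdown and did not pass with FAM60A knockdown, and 851 (29.8%) rose with FAM60A knockdown and did not pass with SDS3 knockdown. A further 1018 genes moved in the same direction in both experiments by different amounts, 491 of them further with SDS3 knockdown and 527 further with FAM60A knockdown. In the fit of 12 arrays 6981 genes (37.5%) changed with FAM60A knockdown and 6894 (37%) with SDS3 knockdown; 4082 changed with both, 3533 of them in the same direction.

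Opposite responses, in which both changes and their difference passed, were found for 2.95% of the genes tested: 165 rose with SDS3 knockdown and fell with FAM60A knockdown, and 384 did the reverse. They were mostly small. Both changes reached 1.5-fold for 17 genes and 2-fold for 0. In 12 of the opposite genes both means of 1 experiment lay under log2 5, the level used as a floor, so a change there cannot be given. Scaling on the poly-A controls left 185 opposite genes (8 that rose with SDS3 knockdown, 177 that fell), and on the hybridization controls 483 (39 and 444).

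The fatty acid gene SLC27A2, which encodes a very long chain acyl-CoA synthetase and fatty acid transporter, stood first among opposite genes by the smaller of the 2 changes. It read 10.13, 9.90 and 10.15 in the FAM60A controls and 11.41, 11.45 and 11.35 after FAM60A knockdown. In the SDS3 experiment it read 9.95, 9.89 and 9.90 in controls and 8.94, 8.94 and 9.09 after knockdown. All FAM60A knockdown arrays were above their controls and all SDS3 knockdown arrays below theirs, by 2.54-fold and 1.90-fold, and the difference was -2.27 (SE 0.0972, adjusted p = 5.26e-09, limma).

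IGFBP1, a secreted carrier of insulin-like growth factors, followed. Its arrays read 8.02, 8.01 and 8.17 in the FAM60A controls, 9.56, 9.36 and 9.31 after FAM60A knockdown, 8.54, 8.57 and 8.68 in the SDS3 controls and 7.75, 7.44 and 7.91 after SDS3 knockdown. Again neither pair of groups overlapped: IGFBP1 rose 2.54-fold with FAM60A knockdown and fell 1.87-fold with SDS3 knockdown, a difference of -2.24 (SE 0.144, adjusted p = 1.77e-07, limma).

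The CCN family of matricellular proteins held opposite genes in both directions. CCN5 read 10.17, 10.25 and 10.09 and then 11.46, 11.43 and 11.40 in the FAM60A experiment, and 9.08, 9.40 and 9.27 and then 8.51, 8.64 and 8.70 in the SDS3 experiment, so it rose by 1.26 with FAM60A knockdown and fell by 0.64 with SDS3 knockdown. CCN2, also known as connective tissue growth factor, moved the other way: 11.28, 11.19 and 11.23 in FAM60A controls, 10.71, 10.80 and 10.54 after FAM60A knockdown, 11.34, 11.47 and 11.57 in SDS3 controls and 12.30, 12.32 and 12.38 after SDS3 knockdown. No knockdown array of either gene lay within the range of its controls. The differences were -1.89 (SE 0.110) for CCN5 and 1.42 (SE 0.100) for CCN2. CCN1, another member, fell with FAM60A knockdown (-0.71) and changed by 0.11 with SDS3 knockdown, a difference of 0.82.

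Among the other genes that rose with SDS3 knockdown and fell with FAM60A knockdown, CCL2 encodes a chemokine that attracts monocytes and ETS1 a transcription factor of the ETS family. CCL2 read 10.33, 10.45 and 10.32 in FAM60A controls, 9.55, 9.84 and 9.72 after FAM60A knockdown, 11.46, 11.33 and 11.40 in SDS3 controls and 12.20, 12.16 and 12.25 after SDS3 knockdown. ETS1 read 9.89, 9.88 and 9.96, then 9.18, 8.85 and 8.91, in the FAM60A experiment, and 8.97, 9.15 and 9.26, then 9.78, 9.62 and 9.85, in the SDS3 experiment. Both genes had separate ranges in each experiment, with differences of 1.47 (SE 0.0988) and 1.55 (SE 0.129). The chondroitin sulfate enzyme CSGALNACT2, the neuroendocrine chaperone SCG5, the zinc finger genes ZNF595 and ZNF264, and NIBAN1 had the same pattern, with falls of 0.47 to 0.63 and rises of 0.49 to 0.73. With poly-A scaling the SDS3 changes of ETS1, NIBAN1, ZNF264 and SCG5 were 0.30, 0.30, 0.20 and 0.16, and none of these 4 passed.

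Genes that rose with FAM60A knockdown and fell with SDS3 knockdown also included KDELR3, C1R and ACO1, named as single genes and not as members of a pathway. KDELR3, a receptor that returns chaperones from the Golgi to the endoplasmic reticulum, read 10.54, 10.54 and 10.49 and then 11.35, 11.34 and 11.30 in the FAM60A experiment, and 10.43, 10.30 and 10.40 and then 9.71, 9.66 and 9.65 in the SDS3 experiment. C1R, a protease of the classical complement pathway, rose by 0.82 and fell by 0.68. ACO1, the cytosolic aconitase that also regulates iron genes, rose by 0.63 and fell by 1.18, with no overlap of its arrays. SPATA17 (0.80 with FAM60A knockdown, -0.69 with SDS3 knockdown) and SAMD11 (0.69 and -0.86) complete the 16 opposite genes named. ACO1 and CSGALNACT2 lost their opposite calls when probe sets that can share sequence with other genes were left out, with differences of -0.27 and 0.24. The other 14 of the 16 kept opposite calls there, and all 16 kept them when any 1 of the 12 arrays was left out.

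**Figure D2:**
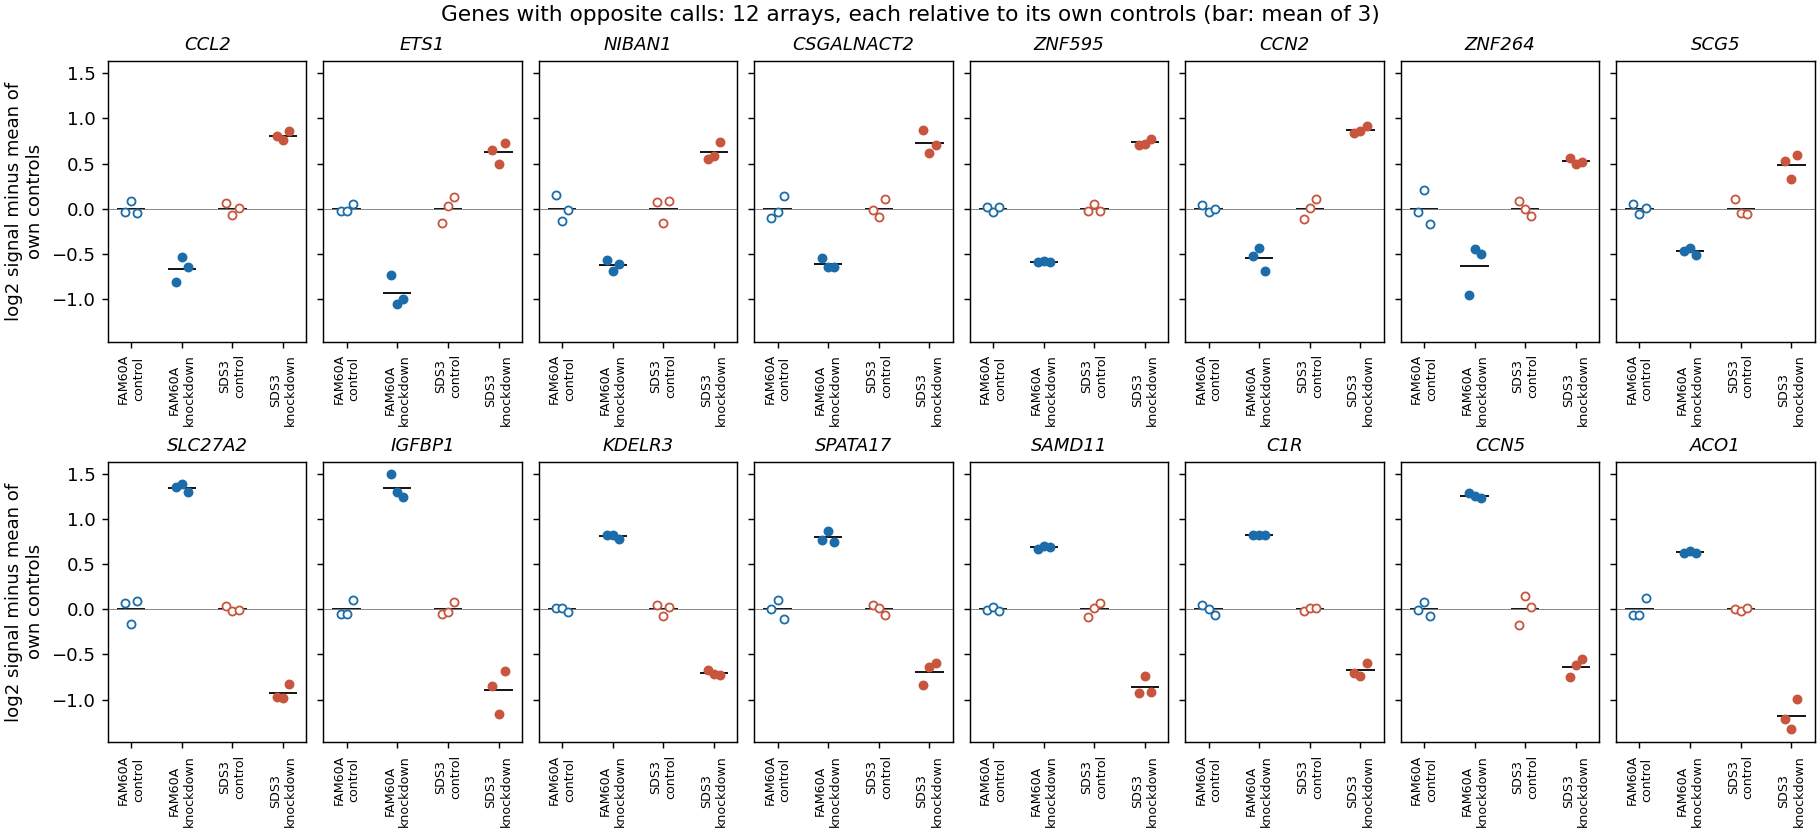
Log2 signal of each of the 12 arrays minus the mean of its own 3 controls (vertical axis) by group (horizontal axis) for the 16 named opposite genes; open points are control arrays, filled points knockdown arrays, and bars the mean of 3. SLC27A2 and IGFBP1 have the widest gaps (-2.27 and -2.24), and no knockdown array lies within its controls.

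Promoter windows were available from RefSeq (GRCh38.p14) for some of these genes. They are shown because their genes moved in opposite directions: SLC27A2 (chr15:50181946-50182195, plus strand) and KDELR3 (chr22:38467846-38468095, plus strand) rose with FAM60A knockdown and fell with SDS3 knockdown, and CCN2 (chr6:131951373-131951622, minus strand) did the reverse. Each is the 250 bases before the annotated start of the gene, 5' to 3' on the gene's strand. Capitals mark matches to GCGTG, the core to which aryl hydrocarbon and hypoxia factors bind, or to TGACNNNGC, the core of the antioxidant response element, on either strand.
SLC27A2: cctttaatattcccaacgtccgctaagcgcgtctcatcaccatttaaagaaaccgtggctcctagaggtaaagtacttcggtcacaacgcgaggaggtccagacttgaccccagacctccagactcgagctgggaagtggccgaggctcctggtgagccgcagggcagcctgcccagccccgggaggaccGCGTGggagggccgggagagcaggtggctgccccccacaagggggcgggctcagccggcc
KDELR3: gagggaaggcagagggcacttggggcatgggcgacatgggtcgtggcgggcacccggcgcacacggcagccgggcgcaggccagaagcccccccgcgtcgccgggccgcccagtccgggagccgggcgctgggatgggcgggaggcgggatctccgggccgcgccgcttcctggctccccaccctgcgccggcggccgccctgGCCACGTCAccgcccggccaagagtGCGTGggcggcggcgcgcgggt
CCN2: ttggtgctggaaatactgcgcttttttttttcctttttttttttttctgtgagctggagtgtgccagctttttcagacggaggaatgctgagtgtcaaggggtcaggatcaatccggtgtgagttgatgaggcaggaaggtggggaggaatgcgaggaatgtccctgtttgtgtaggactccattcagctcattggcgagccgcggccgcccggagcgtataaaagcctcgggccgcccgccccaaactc
In SLC27A2 a GCGTG lies 60 bases before the start, in KDELR3 a GCGTG lies 22 bases and a TGACNNNGC (on the other strand) 47 bases before it, and the CCN2 window holds neither. Over 14544 tested genes with a window, 12% hold TGACNNNGC and 40.0% hold GCGTG; among opposite genes the shares are 12.1% and 41.7%. The shares were also close for TGACTCA, the AP-1 core (3.09% of all, 3.42% of opposite genes), CACGTG, the E-box of MYC and MXD1 (7.98% and 8.2%), and TTTCCCGC, the E2F core (1.94% and 2.05%). All motifs were searched on both strands; a match is a description of these letters only.

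The largest positive differences came mainly from deep falls with FAM60A knockdown. After FAM60A itself, the first was PCYOX1, which encodes the lysosomal enzyme prenylcysteine oxidase. It read 12.17, 12.25 and 12.17 in FAM60A controls and 9.51, 9.82 and 10.01 after FAM60A knockdown, against 12.06, 11.93 and 11.91 and 12.08, 12.04 and 12.19 in the SDS3 experiment. The FAM60A groups were well apart and the SDS3 groups overlapped, giving a difference of 2.56 (SE 0.138, adjusted p = 3.77e-08, limma). UBE2V2, a partner of the ubiquitin-conjugating enzyme UBC13, read 12.41, 12.30 and 12.34 and then 9.98, 10.11 and 9.97 with FAM60A knockdown, and 11.55, 11.61 and 11.60 and then 11.27, 11.22 and 11.24 with SDS3 knockdown. It fell in both experiments, 5.04-fold with FAM60A knockdown and 1.27-fold with SDS3 knockdown. IMP3, a protein of the U3 particle that processes ribosomal RNA, MTMR2, a phosphoinositide phosphatase, and FAIM, an inhibitor of Fas-induced apoptosis, likewise fell in both, by 1.94, 2.30 and 2.12 with FAM60A knockdown and by 0.35, 0.60 and 0.50 with SDS3 knockdown.

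Some of these genes fell with FAM60A knockdown and rose with SDS3 knockdown. The glucose transporter gene SLC2A3 read 10.53, 10.33 and 10.34 and then 9.30, 9.24 and 9.01 in the FAM60A experiment, and 8.99, 9.09 and 8.995 and then 9.52, 9.53 and 9.39 in the SDS3 experiment, with no overlap in either. RP2, an activator of the GTPase ARL3, changed by -1.35 and 0.40, and ETS1 is given above. DR1, a repressor that binds the TATA-binding protein, fell with FAM60A knockdown (-1.30) and was at 0.25 with SDS3 knockdown, which did not pass. Of its other probe sets, 3 of similar brightness fell in both, by 0.82 to 0.96 with FAM60A knockdown and 0.38 to 0.42 with SDS3 knockdown, and their differences were smaller, 0.42 to 0.58. HNRNPA3, an RNA-binding protein, fell with FAM60A knockdown (-1.69) and was at -0.00015 with SDS3 knockdown, and the cancer-testis antigen gene PRAME was at -1.55 and -0.028. SPOPL, an adaptor of cullin 3 ubiquitin ligases, differed from the rest of this set: it rose with SDS3 knockdown (1.34) and changed by -0.14 with FAM60A knockdown. PTX3, a secreted pentraxin of innate immunity, read 7.10, 7.38 and 7.16 in FAM60A controls and 4.67, 4.80 and 4.67 after FAM60A knockdown, and 6.71, 6.93 and 7.09 and then 6.18, 6.23 and 6.27 in the SDS3 experiment. It fell to a mean of 4.71 with FAM60A knockdown, under the level of 5 used as a floor, so its fall is at least 4.64-fold. Its difference is at least 1.53 if the SDS3 readings, which lie above that floor, are taken as they are. Background in those readings was not tested.

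The largest negative differences were of several kinds. HTR2B, the serotonin 2B receptor, read 7.37, 7.01 and 6.96 in SDS3 controls and 3.94, 4.47 and 4.29 after SDS3 knockdown, under the floor of 5, and 7.49, 7.52 and 7.49 and then 7.10, 7.16 and 7.07 in the FAM60A experiment. It fell in both, at least 4.33-fold with SDS3 knockdown and 1.31-fold with FAM60A knockdown. TM4SF20, a tetraspan membrane protein, read 10.78, 10.31 and 10.75 and then 11.14, 11.06 and 11.08 with FAM60A knockdown, and 9.81, 9.56 and 9.70 and then 7.59, 7.85 and 8.05 with SDS3 knockdown. Its ranges were separate and opposite, with a rise of 0.48 and a fall of 1.86 (difference -2.35, SE 0.175, adjusted p = 5.31e-07, limma). The receptor for lysophosphatidic acid LPAR1 (0.58 with FAM60A knockdown and -1.05 with SDS3 knockdown), the thyroid hormone activating deiodinase DIO2 (0.56 and -1.13) and the MARCKS-related gene MARCKSL1 (0.38 and -1.20) were opposite too. For DIO2 the rise with FAM60A knockdown rested on the brightest probe set. The next brightest fell by 1.14 with SDS3 knockdown, but its change of 0.19 with FAM60A knockdown did not pass. Dimmer DIO2 probe sets differed by -0.050 and -0.014, which did not pass, and by -0.68, which did.

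PLCXD3 fell with SDS3 knockdown (-1.73) and was at -0.025 with FAM60A knockdown, and the inositol transporter SLC2A13 fell by 2.10 and 0.41. In ST6GAL2, a sialyltransferase, and the uncharacterised LOC100505498 the FAM60A side was the larger: 1.45 and 1.37 with FAM60A knockdown, -0.32 and -0.28 with SDS3 knockdown. Of the 39 genes named by size or by opposite direction, which include both siRNA targets, 25 had another probe set above the level filter. For 19 of them such a second probe set passed with the same sign, and for 0 with the other sign. Over all 173 named genes, 91 had another probe set at a mean of at least log2 6, and in 51 of these at least 1 such probe set had a difference that did not pass or had the other sign; in 1, MRPL19, it passed with the other sign. Genes described here of which this holds, some of them with dim second probe sets, are ABCC3, ADAM12, AGR2, APOH, ATF3, CDH1, CDK1, CSGALNACT2, CXCL5, CYP1B1, DIO2, EHF, EIF2AK2, EMSY, ETS1, GATA6, GDF15, GPX2, HBEGF, LTBP3, MDM2, MXD1, SAP30L, SERPINB9, SIN3B, SLC2A1, TBX3 and ZNF264.

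**Figure D3:**
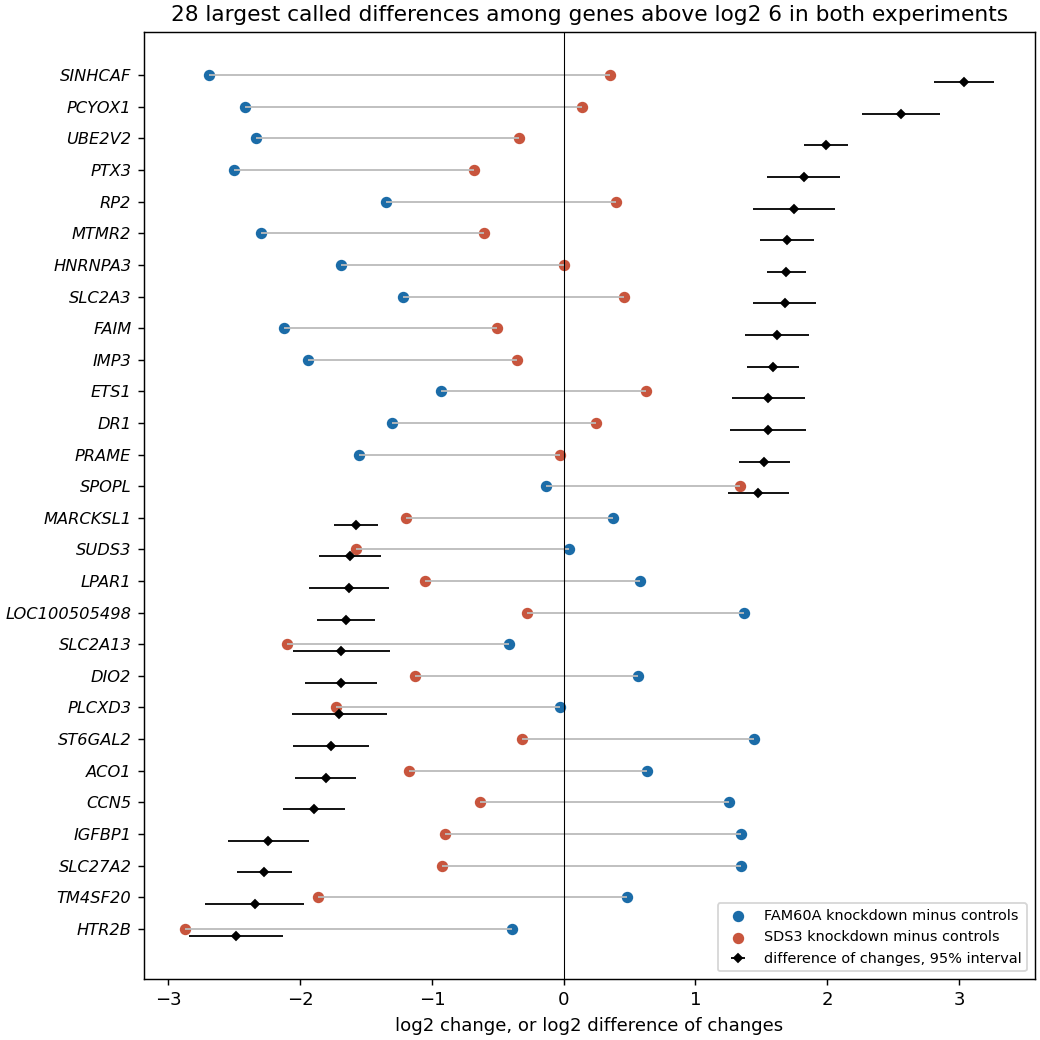
Changes (log2, knockdown minus own control) of the 28 genes with the largest called differences above log2 6 in both experiments, 14 positive and 14 negative, with 1 point for each knockdown, and the difference of changes as a diamond with its 95% interval. Both siRNA targets are among the 28, FAM60A (SINHCAF) with the positive and SDS3 (SUDS3) with the negative differences, and theirs follow from the design. Falls with FAM60A knockdown dominate the positive differences (PCYOX1 -2.42), while the negative ones mix falls with SDS3 knockdown (TM4SF20 -1.86) with rises with FAM60A knockdown (SLC27A2 1.35).

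Gene lists of pathways were then read against the background of 25.3% of all genes called and the median difference of 0.013. The lists are described by counts and medians only, with no test of a list, and members named are those with the largest called differences unless stated.

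**Figure D4:**
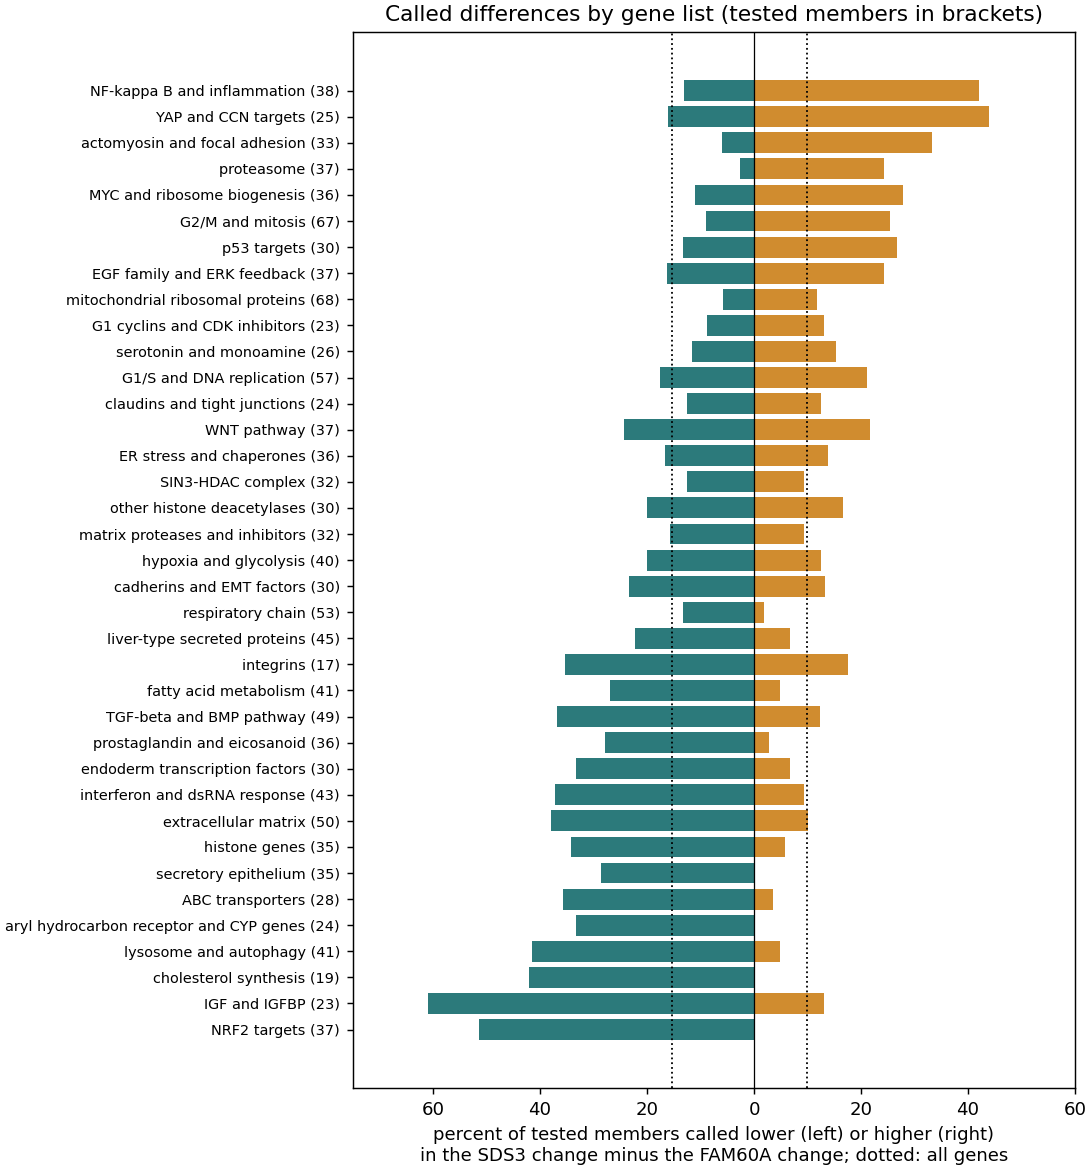
Percentage of tested members called higher (right) or lower (left) in the SDS3 change minus the FAM60A change, for each of the 37 gene lists; dotted lines are all genes (9.99% and 15.3%). NRF2 targets have 19 lower and 0 higher, insulin-like growth factor genes 14 lower and 3 higher, and the G2/M list 17 higher and 6 lower.

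Targets of NRF2, the transcription factor that drives antioxidant and detoxifying genes and is constitutively active in A549 through loss of KEAP1 function, were in part lower with SDS3 knockdown. Of 37 tested, 19 were lower and 0 higher (51.4% called, median difference -0.23); 29 fell and 4 rose with SDS3 knockdown, against 12 and 5 with FAM60A knockdown. With scaling on poly-A controls 11 were lower and 0 higher. GPX2, a glutathione peroxidase, read 13.54, 13.15 and 13.24 in SDS3 controls and 11.93, 11.75 and 11.999 after SDS3 knockdown, against 13.63, 13.56 and 13.81 and 13.37, 13.32 and 13.56 in the FAM60A experiment. The SDS3 groups were apart and the FAM60A groups overlapped (difference -1.16, SE 0.146, adjusted p = 4.79e-05, limma).

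The aldehyde dehydrogenase ALDH3A1 read 13.14, 12.79 and 12.79 and then 11.92, 11.72 and 11.89 in the SDS3 experiment and 13.02, 12.96 and 13.07 and then 13.05, 12.91 and 13.18 in the FAM60A experiment, a difference of -1.09 (SE 0.133). The conjugate exporters ABCC2 (0.35 with FAM60A knockdown, -0.79 with SDS3 knockdown) and ABCC3 (0.63 and -0.43) were opposite; the 1 ABCC3 probe set without shared sequence differed by -0.094 and did not pass. The cystine importer SLC7A11, named after its values were seen, read 12.38, 12.28 and 12.27 and then 11.24, 11.28 and 11.38 with SDS3 knockdown and 12.70, 12.64 and 12.67 and then 12.68, 12.38 and 12.53 with FAM60A knockdown. Its SDS3 groups were apart and its FAM60A groups overlapped.

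The antioxidant response element core TGACNNNGC lay in the 250-base window of 8 of the 28 NRF2 targets with a RefSeq window (28.6%) and of 5 of the 14 lower ones (35.7%), against 12% of all windows; no comparison of these shares was tested. The 5 are shown with the core in capitals (on either strand) and 25 bases on each side, from GRCh38.p14, 5' to 3' on the gene's strand. They are CBR1 (chr21:36069840-36069898, plus), GPX2 (chr14:64942834-64942892, minus), PGD (chr1:10398838-10398896, plus), SLC3A2 (chr11:62881637-62881695, plus) and TXNRD1 (chr12:104215655-104215713, plus).
CBR1: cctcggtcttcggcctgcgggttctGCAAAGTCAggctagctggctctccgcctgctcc
GPX2: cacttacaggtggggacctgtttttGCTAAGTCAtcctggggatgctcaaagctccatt
PGD: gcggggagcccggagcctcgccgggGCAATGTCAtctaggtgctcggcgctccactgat
SLC3A2: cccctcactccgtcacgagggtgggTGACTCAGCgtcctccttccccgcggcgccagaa
TXNRD1: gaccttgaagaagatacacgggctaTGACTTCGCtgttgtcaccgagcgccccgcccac
The cores begin 159, 122, 201, 37 and 99 bases before the start of these genes, in that order. SLC3A2 has 3 listed starts and TXNRD1 has 2, and only the first listed was searched. CBR1 is a carbonyl reductase, PGD an enzyme of the pentose phosphate pathway that yields NADPH, SLC3A2 the heavy chain that pairs with SLC7A11, and TXNRD1 thioredoxin reductase. These 4 differed less than GPX2: -0.23 for CBR1, -0.30 for PGD, -0.30 for SLC3A2 and -0.31 for TXNRD1, with adjusted p (limma) of 0.0483, 0.00479, 0.00699 and 0.00952. SLC3A2 fell with SDS3 knockdown (-0.15) and rose with FAM60A knockdown (0.15), while the other 3 fell with SDS3 knockdown and did not pass with FAM60A knockdown.

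**Figure D5:**
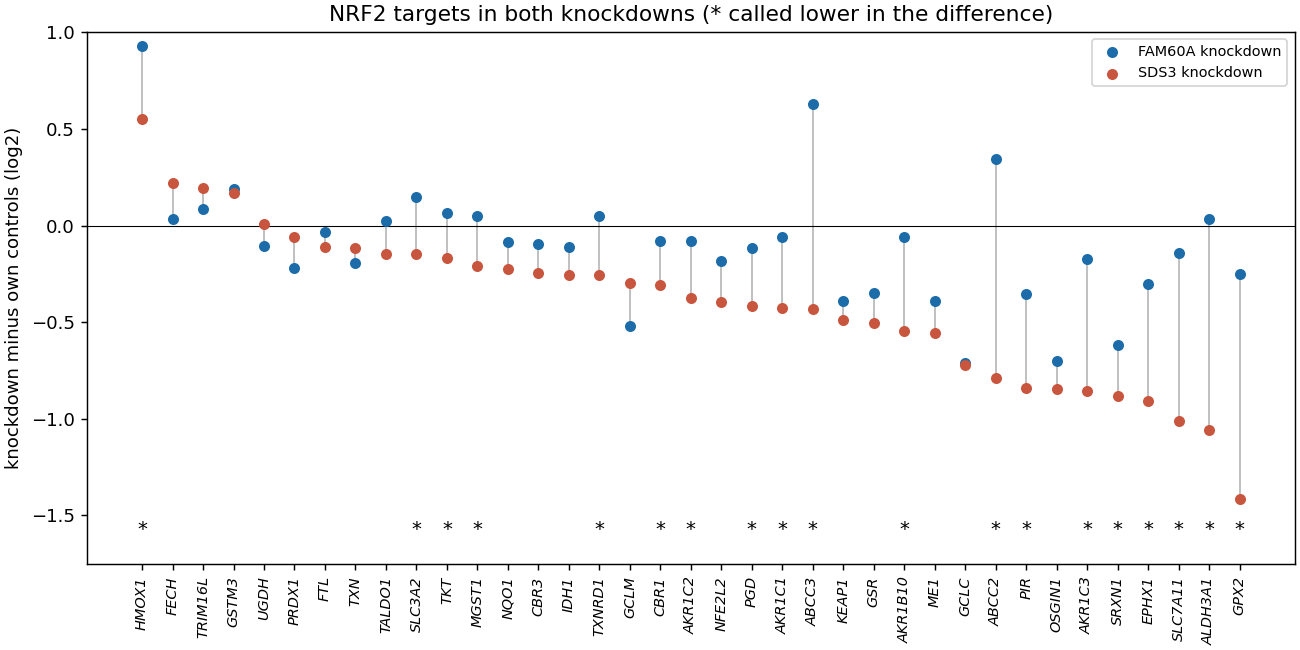
Log2 change with each knockdown (mean of 3 knockdown minus mean of 3 control arrays, 1 point a knockdown) for the 37 NRF2 targets tested; asterisks mark called differences. The SDS3 point lies below the FAM60A point in every gene with an asterisk, for example by -1.16 in GPX2 and -0.23 in CBR1.

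Insulin-like growth factor genes were also more often lower than higher with SDS3 knockdown. Of 23 tested, 14 were lower and 3 higher (73.9% called, median -0.32). Besides IGFBP1, the insulin receptor substrate IRS1 read 9.78, 9.74 and 9.83 and then 11.04, 11.04 and 10.95 with FAM60A knockdown, and 10.44, 10.29 and 10.36 and then 10.10, 10.08 and 10.18 with SDS3 knockdown. Its ranges were separate in both experiments, with a rise of 1.23 and a fall of 0.24. The secreted glycoprotein STC2 (-0.10 with FAM60A knockdown, -0.75 with SDS3 knockdown) and the carrier IGFBP6 (0.22 and -0.42) were lower as well.

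Most extracellular matrix genes rose with FAM60A knockdown and many rose with SDS3 knockdown, and those that differed mostly lay lower with SDS3 knockdown. Of 50 tested, 34 rose with FAM60A knockdown and 28 with SDS3 knockdown; 19 were lower and 5 higher in the difference (48%, median -0.18). The basement membrane gene NID2 read 9.02, 9.001 and 9.10 and then 10.26, 10.26 and 10.19 with FAM60A knockdown, and 7.21, 7.20 and 7.19 and then 7.06, 6.81 and 7.30 with SDS3 knockdown, where the ranges overlapped. The fibrillar collagen gene COL5A1 rose by 2.84 with FAM60A knockdown and 1.72 with SDS3 knockdown, and the microfibril gene FBN1 by 1.39 and 0.38. P4HA1, a collagen prolyl hydroxylase, went the other way, with a fall of 1.09 with FAM60A knockdown and a change of -0.10 with SDS3 knockdown. Of 9 fibroblast markers tested, 3 rose and 2 fell with FAM60A knockdown, and 4 rose and 1 fell with SDS3 knockdown. Their summed intensity (10 genes) went from between 1956 and 2022 to between 2978 and 3025 with FAM60A knockdown, and from between 1928 and 2226 to between 3215 and 3828 with SDS3 knockdown. Most of this was COL1A1, which rose by 2.10 and 1.11: without it the sum was 1583 to 1741 in FAM60A controls and 1541 to 1697 after knockdown, which overlap, and 918 to 935 and then 975 to 997 in the SDS3 experiment. LUM, a proteoglycan of fibroblasts, fell in both (-0.60 and -0.85), and POSTN stayed under the level filter; the part of other cells in the matrix genes was not tested.

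Of 49 TGF-beta and BMP pathway genes, 18 were lower and 6 higher (49%, median -0.13). GDF15, a stress-induced ligand of the family, read 10.74, 10.39 and 10.29 and then 8.97, 8.996 and 9.23 with SDS3 knockdown, and 12.36, 12.34 and 12.41 and then 12.32, 12.46 and 12.29 with FAM60A knockdown, where the ranges overlapped. The latent TGF-beta binding protein LTBP3 rose by 1.42 and 0.31, and PMEPA1, a feedback inhibitor, by 1.21 and 0.27, FAM60A knockdown first. SMURF2, a ubiquitin ligase that targets the receptors, went the other way (0.18 with FAM60A knockdown, 1.21 with SDS3 knockdown). Without probe sets of shared sequence GDF15 differed by -0.16 and LTBP3 by 0.066, and neither passed.

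Among 17 integrin subunits 6 were lower and 3 higher (52.9%; 0 higher and 5 lower with poly-A controls); ITGA1 (0.29 with FAM60A knockdown, -0.94 with SDS3 knockdown) and ITGA5 (0.65 and -0.21) had the largest differences. Among 32 matrix proteases and inhibitors 5 were lower and 3 higher (25%, against 25.3% of all genes); with quantile scaling 7 were lower and 6 higher. There the membrane protease ADAM12 rose with FAM60A knockdown (1.47) and was at -0.018 with SDS3 knockdown, the matrilysin gene MMP7 was at 0.15 and fell by 1.09, and the granzyme inhibitor SERPINB9 fell in both (-2.36 and -1.11). The other 2 SERPINB9 probe sets differed by 0.067 and -0.15, and neither passed.

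Actomyosin and focal adhesion genes mostly rose with both knockdowns, 23 of 33 with FAM60A knockdown and 24 with SDS3 knockdown. In the difference 11 were higher and 2 lower (39.4%), but this direction did not hold under other scalings: 0 higher and 2 lower with poly-A controls, 3 and 3 with hybridization controls. The myosin light chain MYL9 read 7.50, 7.85 and 7.53 and then 9.11, 9.35 and 9.34 with FAM60A knockdown, and 7.24, 7.38 and 7.34 and then 9.61, 9.67 and 9.66 with SDS3 knockdown. It rose in both, by 1.64 and 2.33, and the difference of 0.68 (adjusted p = 0.00104, limma) did not pass with poly-A scaling.

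Of 25 YAP and CCN targets 11 were higher and 4 lower (60%, median 0.15), 8 and 4 with hybridization controls, and 3 and 4 with poly-A controls, which turns the majority. Besides the CCN genes, the angiomotin relative AMOTL2 rose with SDS3 knockdown (0.93) and changed by 0.14 with FAM60A knockdown. Of 30 cadherins and epithelial-mesenchymal factors 7 were lower and 4 higher (36.7%; 0 higher and 5 lower with poly-A controls). E-cadherin, CDH1, read 8.67, 8.60 and 8.51 and then 6.91, 7.05 and 7.25 with SDS3 knockdown, and 10.67, 10.38 and 10.62 and then 10.07, 10.01 and 10.13 with FAM60A knockdown. It fell in both, 2.87-fold and 1.40-fold, whereas the adhesion molecule EPCAM fell further with FAM60A knockdown (-1.22 against -0.58), a difference that did not pass with poly-A scaling.

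Genes of secretory epithelium that differed were lower with SDS3 knockdown. Of 35 tested, 10 were lower and 0 higher (28.6%, near the background in share). AGR2, a disulfide isomerase of mucus-producing cells, read 12.23, 11.87 and 11.89 and then 8.77, 8.57 and 8.91 with SDS3 knockdown, and 13.78, 13.71 and 13.72 and then 11.89, 11.73 and 12.11 with FAM60A knockdown. It fell 9.50-fold and 3.55-fold with no overlap in either. Its second probe set fell by 1.33 and 1.45, SDS3 knockdown first, and that difference of 0.12 did not pass (adjusted p = 0.615, limma), so the further fall of AGR2 rests on 1 probe set. The annexin ANXA10 (0.23 with FAM60A knockdown and -1.05 with SDS3 knockdown) and the adhesion molecule CEACAM6 (-0.18 and -1.27) were lower too.

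The transcription factors of endoderm and secretory epithelium had 10 of 30 lower and 2 higher (40%). ELF3, an epithelial ETS factor, read 10.89, 10.76 and 10.77 and then 9.44, 9.52 and 9.59 with SDS3 knockdown, and 11.95, 11.82 and 11.91 and then 12.12, 12.01 and 11.93 with FAM60A knockdown. The SDS3 groups were apart and the FAM60A groups overlapped. The related factor EHF fell with SDS3 knockdown (-0.96) and was at 0.36 with FAM60A knockdown, which did not pass. The T-box factor TBX3 was opposite (0.42 with FAM60A knockdown, -0.58 with SDS3 knockdown), and GATA6 was opposite in the other direction (-0.30 and 0.37), which did not pass with poly-A scaling. Liver-type secreted proteins had 10 of 45 lower and 3 higher (28.9%); the plasma proteins APOH and FGL1 fell by 0.63 and 0.87 with FAM60A knockdown and by 1.92 and 2.11 with SDS3 knockdown, while ANGPTL4, an inhibitor of lipoprotein lipase, rose by 0.21 and 1.40.

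Of 24 aryl hydrocarbon receptor and cytochrome P450 genes 8 were lower and 0 higher (33.3%). CYP1B1, a classical target of the receptor, read 9.77, 9.68 and 9.71 and then 7.31, 6.97 and 7.50 with SDS3 knockdown, and 10.47, 10.65 and 10.69 and then 9.76, 9.70 and 9.46 with FAM60A knockdown; it fell 5.49-fold and 1.94-fold. CYP1A1, another target, fell by 1.20 with SDS3 knockdown and by 0.42 with FAM60A knockdown, and AHRR, the receptor's repressor, fell by 0.67 and rose by 0.30. Prostaglandin and eicosanoid genes had 10 of 36 lower and 1 higher (30.6%). PTGS2, cyclooxygenase 2, read 11.01, 10.70 and 10.61 and then 8.41, 8.14 and 8.81 with SDS3 knockdown, and 11.84, 11.55 and 11.96 and then 10.87, 10.74 and 10.91 with FAM60A knockdown, and PLA2G4A, the phospholipase that releases arachidonic acid, fell by 2.14 and 1.02. Both enzymes fell in both experiments and further with SDS3 knockdown.

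Lipid and lysosome genes were more often lower than higher in the difference. Cholesterol synthesis had 8 of 19 lower and 0 higher (42.1%, median -0.23; 5 lower and 0 higher with poly-A controls), led by INSIG1, which retains the sterol sensor in the endoplasmic reticulum (-0.082 with FAM60A knockdown, -0.58 with SDS3 knockdown), and the demethylating enzyme MSMO1 (0.75 and 0.29). Fatty acid metabolism had 11 of 41 lower and 2 higher (31.7%), with the elongase ELOVL7 rising by 2.20 and 0.83. Lysosome and autophagy genes had 17 of 41 lower and 2 higher (46.3%, median -0.18). The autophagosome protein GABARAPL2 read 12.71, 12.63 and 12.56 and then 11.61, 11.42 and 11.63 with SDS3 knockdown, and 13.03, 13.06 and 12.95 and then 13.13, 13.26 and 13.19 with FAM60A knockdown; its ranges were separate in both, a small rise and a larger fall. NPC1, the lysosomal cholesterol exporter, rose by 1.23 with FAM60A knockdown and 0.32 with SDS3 knockdown.

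ABC transporters had 10 of 28 lower and 1 higher (39.3%), and the drug exporter ABCG2 fell by 1.58 with SDS3 knockdown and by 0.29 with FAM60A knockdown. The lipid transporter ABCA12 rose with FAM60A knockdown (0.70), but both its SDS3 means (4.84 and 4.03) lay under the floor of 5, so no change with SDS3 knockdown can be given and its difference is bounded at -0.70. This list and the NRF2 list share ABCC2 and ABCC3.

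Most genes of mitosis fell with each knockdown, and on the deposited scale those that differed were mostly lower with FAM60A knockdown. Of 67 G2/M and mitosis genes, 51 fell with FAM60A knockdown and 37 with SDS3 knockdown. In the difference 17 were higher and 6 lower (34.3%, median 0.12), but 7 and 9 with hybridization controls and 3 and 3 with poly-A controls. The mitotic kinase CDK1 read 12.77, 12.67 and 12.84 and then 11.95, 11.98 and 11.97 with FAM60A knockdown, and 11.85, 11.91 and 11.88 and then 11.97, 11.90 and 12.05 with SDS3 knockdown, where the ranges overlapped. The kinesin KIF4A (-0.73 with FAM60A knockdown, 0.077 with SDS3 knockdown) and HMMR, a spindle protein (-0.86 and -0.089), had the same pattern, and the phosphatase CDC25B the reverse (-0.053 and -0.84). For CDK1 this pattern rested on its brightest probe set. The next brightest CDK1 probe sets fell in both, by 0.61 and 0.60 with FAM60A knockdown and by 0.22 each with SDS3 knockdown. Their differences were smaller, 0.39 and 0.37.

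G1/S and replication genes had 12 of 57 higher and 10 lower (38.6%), and 0 and 6 with poly-A controls and 4 and 11 with hybridization controls. The replication factors GINS1 and MCM2 fell with FAM60A knockdown (-0.76 and -0.62) and were at -0.023 and -0.045 with SDS3 knockdown, while GINS3, a partner of GINS1 in the same complex, was at -0.096 with FAM60A knockdown and fell with SDS3 knockdown (-0.78). The differences of GINS1 and MCM2 did not pass with poly-A scaling. G1 cyclins and inhibitors had 3 of 23 higher and 2 lower (21.7%; 0 and 2 with poly-A controls). The p53 targets had 8 of 30 higher and 4 lower (40%), 3 and 4 with hybridization controls and 2 and 2 with poly-A controls. MDM2, the ubiquitin ligase of p53, fell with FAM60A knockdown (-0.95) and was at -0.069 with SDS3 knockdown. Of 6 other MDM2 probe sets at a mean of at least log2 6, 4 had a difference that did not pass or had the other sign.

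Housekeeping lists had fewer or scale-dependent calls. Ribosome biogenesis had 10 of 36 higher and 4 lower (38.9%), 0 and 3 with poly-A controls and 3 and 4 with hybridization controls. Its member NOB1, an endonuclease that matures ribosomal RNA, fell by 0.39 with FAM60A knockdown and 1.19 with SDS3 knockdown. Proteasome subunits had 9 of 37 higher and 1 lower (27%), 0 and 1 with poly-A controls and 1 and 3 with hybridization controls. Mitochondrial ribosomal proteins had 8 of 68 higher and 4 lower (17.6%), 0 and 3 with poly-A controls and 0 and 6 with hybridization controls, and the respiratory chain had 1 of 53 higher and 7 lower (15.1%; 0 higher and 3 lower with poly-A controls), both shares under the background. MRPL27 fell with SDS3 knockdown (-1.17) and was at -0.070 with FAM60A knockdown.

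Inflammatory and interferon genes split. NF-kappa B and inflammation genes had 16 of 38 higher and 5 lower (55.3%, median 0.16), 8 and 6 with hybridization controls and 3 and 6 with poly-A controls, which turns the majority. Besides PTX3 and CCL2, the cytokine IL11 rose further with FAM60A knockdown (1.75 against 0.86), and the chemokine CXCL5 fell with FAM60A knockdown (-0.86) and was at 0.0041 with SDS3 knockdown. CXCL5 lost its call once probe sets of shared sequence were removed. Interferon and double-stranded RNA response genes had 16 of 43 lower and 4 higher (46.5%, median -0.099). EIF2AK2, the kinase PKR that senses double-stranded RNA, read 10.62, 10.62 and 10.73 and then 11.02, 10.89 and 10.89 with FAM60A knockdown, and 9.87, 9.87 and 9.95 and then 9.29, 9.19 and 9.43 with SDS3 knockdown. On this probe set its ranges were separate and opposite. A second bright EIF2AK2 probe set fell in both instead, by 0.39 with FAM60A knockdown and 0.22 with SDS3 knockdown, and its difference of 0.16 did not pass (adjusted p = 0.344, limma). IFITM2, a membrane protein that blocks virus entry, was opposite (0.46 with FAM60A knockdown, -0.49 with SDS3 knockdown), TRIM22 rose with FAM60A knockdown (0.78) and was at -0.15 with SDS3 knockdown, and the nuclease ISG20 fell with FAM60A knockdown (-0.98) and was at 0.0070 with SDS3 knockdown.

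Growth factor and stress genes held some of the larger single differences without a common direction. EGF family and ERK feedback genes had 9 of 37 higher and 6 lower (40.5%; 5 and 5 with poly-A controls, 5 and 7 with hybridization controls). FOS, an immediate early gene, read 8.47, 8.21 and 8.12 and then 7.11, 6.78 and 6.91 with SDS3 knockdown, and 8.94, 8.83 and 8.98 and then 8.50, 9.19 and 8.78 with FAM60A knockdown, where the ranges overlapped. DUSP6, a phosphatase of ERK, was opposite (-0.61 with FAM60A knockdown, 0.36 with SDS3 knockdown), and the ligand HBEGF rose with SDS3 knockdown (0.84; -0.047 with FAM60A knockdown). Endoplasmic reticulum stress genes had 5 of 36 higher and 6 lower (30.6%; 1 higher and 5 lower with poly-A controls). ATF3, a stress transcription factor, read 9.09, 9.19 and 9.11 and then 7.88, 7.72 and 7.94 with SDS3 knockdown, and 8.85, 8.86 and 8.78 and then 8.92, 8.77 and 8.79 with FAM60A knockdown. It fell with SDS3 knockdown and its FAM60A groups overlapped, while ASNS, asparagine synthetase, fell further with FAM60A knockdown (-1.31 against -0.52).

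The remaining lists were mixed. WNT pathway genes had 8 of 37 higher and 9 lower (45.9%), 0 and 7 with poly-A controls and 5 and 10 with hybridization controls, with the receptor FZD2 rising with FAM60A knockdown (0.83) and at 0.11 with SDS3 knockdown. Hypoxia and glycolysis genes had 5 of 40 higher and 8 lower (32.5%), and the paralogous glucose transporters differed in opposite directions: SLC2A3 by 1.68 and SLC2A1 by -0.90, the latter losing its call once probe sets of shared sequence were removed. Claudins and tight junction genes had 3 of 24 higher and 3 lower (25%; 1 higher and 3 lower with poly-A controls), among them the pore-forming CLDN2, which rose by 0.58 with FAM60A knockdown and fell by 0.41 with SDS3 knockdown. Serotonin and monoamine genes had 4 of 26 higher and 3 lower (26.9%; 2 and 4 with poly-A controls, 3 and 7 with hybridization controls), where DDC, which makes serotonin and dopamine, fell by 2.34 with FAM60A knockdown and 1.12 with SDS3 knockdown.

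In the SIN3 complex itself few members differed besides the targets. Of 32 members tested, 3 were higher and 4 lower (21.9%, against 25.3% of all genes). These counts include both siRNA targets, FAM60A among the higher and SDS3 among the lower, whose differences follow from the design. The higher and lower counts were 6 and 4 with quantile scaling, which turns the majority, and 2 and 6 with hybridization controls. MXD1, which recruits SIN3 to E-boxes, read 8.23, 8.30 and 8.33 and then 7.86, 7.77 and 7.64 with FAM60A knockdown, and 8.22, 8.27 and 8.11 and then 8.67, 8.52 and 8.73 with SDS3 knockdown. It was opposite with no overlap (difference 0.97, SE 0.0998). SIN3B, the second scaffold, rose in both (0.94 with FAM60A knockdown, 0.45 with SDS3 knockdown), as did SAP30L (0.88 and 0.21). The SIN3B difference was -0.16 and did not pass when all its probe sets were averaged. Of 5 other SAP30L probe sets at a mean of at least log2 6, 4 had a difference that did not pass or had the other sign. ING2, a reader of methylated histone H3, was at 0.17 and -0.36, and EMSY at -0.16 and 0.24. The ING2 call was lost without probe sets of shared sequence, and that of EMSY (difference 0.40) with scaling on poly-A controls (0.18) or hybridization controls (0.26), and at 0.35 to 0.36 when FAM60A control replicate 1, FAM60A knockdown replicate 3 or SDS3 control replicate 2 was left out.

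Of 30 genes of other deacetylases and their complexes 5 were higher and 6 lower (36.7%), 0 and 5 with poly-A controls and 0 and 6 with hybridization controls; SIRT1 fell with SDS3 knockdown (-0.94) and was at 0.018 with FAM60A knockdown. Histone genes had 12 of 35 lower and 2 higher (40%, median -0.19). H2AC6 read 10.10, 10.22 and 10.07 and then 10.75, 10.79 and 10.75 with FAM60A knockdown, and 10.05, 10.03 and 10.02 and then 9.85, 9.75 and 9.93 with SDS3 knockdown. It rose and fell, respectively, with no overlap. H1-2 rose by 0.86 with FAM60A knockdown and changed by 0.17 with SDS3 knockdown; since histone genes are near-identical copies, a probe set can read several of them.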

How the data were processed

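RNA of 12 A549 samples was measured on a 1-colour Affymetrix array with 54675 probe sets. The deposited values are linear intensity per probe set, processed by the authors with RMA per the submitters' processing notes; its settings, and whether all 12 arrays were normalized together, are not given in the sources used here. RMA gives the arrays it treats together a common distribution, which removes a change shared by most transcripts. The 12 deposited arrays do not have 1 common distribution: their medians were 186 to 193 in the FAM60A experiment and 96.8 to 98.3 in the SDS3 experiment. Log2 of the deposited intensity was taken here. Gene names came from the platform annotation of probe sets (41097 with 1 symbol, 1801 with several, 11777 with none listed), with symbols updated through RefSeq's GRCh38.p14 gene table for 41043. Each of 19775 genes was represented by its brightest probe set on average over all arrays, and 18621 with at least 3 arrays at log2 5 were tested. Depth has no meaning for arrays, and 3 arrays a group limit the precision.

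A model of the 4 group means was fitted to all 12 arrays (limma 3.58.1, run under R 4.3.3, with moderated variances; Benjamini-Hochberg adjustment, threshold 0.05), and the contrast was the SDS3 change minus the FAM60A change. The fit was tested on simulated data. Named genes were the targets, the 14 largest called differences in each direction, 8 opposite genes in each direction and up to 4 called members of each list with the largest differences (all called members for the SIN3 complex); the level rule for the first sets was at least 3 of 6 arrays at log2 6 in each experiment. The members and lists were chosen with earlier results of these data known. Samples with the same replicate number did not deviate together (correlations from -0.12 to 0.034), so they were not paired. Alternatives covered scaling, variance model, filters, probe set choice, thresholds, a replicate block and leaving out each array; scaling on hybridization controls was added after the data were seen. Promoter windows were the 250 bases before the start in RefSeq's table, where one was listed. For a gene with several listed starts the first was used, also for the motif shares.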

Additional observations from a re-analysis of the deposited data

Results flagged for a closer look

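The opposite responses in which both changes reached 1.5-fold and the difference passed (limma) are listed here. In these genes every knockdown array of 1 experiment lay above its controls and every knockdown array of the other below them. Opposite genes with a smaller change in either experiment, such as TM4SF20, are left out even where their difference was larger. Lower with SDS3 knockdown than with FAM60A knockdown were SLC27A2 (-2.27), IGFBP1 (-2.24), CCN5 (-1.89), ACO1 (-1.81), SAMD11 (-1.55), KDELR3 (-1.51), C1R (-1.50), SPATA17 (-1.49), LYPD1 (-1.42), CLTRN (-1.29) and TMEM117 (-1.20). Higher were ETS1 (1.55), CCL2 (1.47), CSGALNACT2 (1.34), ZNF595 (1.32) and NIBAN1 (1.25). ABCA12 was fitted at -1.52, but both its SDS3 means lie under log2 5, so no fall with SDS3 knockdown can be given, and the bound of its difference is -0.70. The SDS3 knockdown mean of CLTRN also lies under that level, and the bound of its difference is -0.89. LYPD1, CLTRN and TMEM117 were named here after their values were seen.

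Probe sets outside the gene table also moved. With SDS3 knockdown the poly-A control RNAs read higher by 0.32 (mean of 24 probe sets) and the 18S ribosomal RNA probe sets by 0.53 (mean of 3), against 0.10 and 0.28 with FAM60A knockdown; these differences were not tested.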

How the results depend on the processing

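Counts depended most on scaling and threshold. Poly-A scaling gave 2533 called differences (192 higher) with 185 opposite genes (8 that rose with SDS3 knockdown, 177 that fell); scaling on hybridization controls, chosen after seeing the data, gave 537 higher and 39 opposite genes that rose with SDS3 knockdown. At adjusted p under 0.01 there were 2811 calls (952 higher, 1859 lower) and 253 opposite genes (72 and 181), and with a difference of at least 1 there were 234 (79 and 155) and 87 (18 and 69). Leaving out 1 array at a time gave 3945 to 4890 calls, 1505 to 1890 higher and 2423 to 3033 lower, and 432 to 586 opposite genes (130 to 181 that rose with SDS3 knockdown, 297 to 414 that fell). The replicate block gave 4003 calls (1529 higher, 2474 lower) and 448 opposite genes; same-numbered samples share only a number. Under the other filters, probe set rules and variance models these counts stayed within 1.5 times.

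Of 173 named genes 131 kept direction and call under every alternative but the stricter thresholds, and 42 lost the call in at least 1; LTBP3 (0.066) and ZEB2 (-0.041) also changed sign, both without probe sets of shared sequence, where the cause was not tested. The count of called members moved by over 1.5 times in 19 of 37 lists under a scaling. Signal near background, which differs between the experiments, limits what falls can show.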

Other observations

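Among 10904 probe sets above the level filter that are not assigned to a single gene, 1088 (9.98%) had a called difference in the same model (limma, adjusted over those probe sets and the rest); they are not named here. Of 15002 tested genes above log2 6 in at least 3 arrays of each experiment 29.1% were called, against 9.86% of the other 3619.

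The summed intensity of 14 epithelial and lung marker genes was 83294 to 87033 in FAM60A controls and 83021 to 86903 after FAM60A knockdown, ranges that overlap. In the SDS3 experiment it was 74285 to 76236 in controls and 68840 to 69606 after knockdown, with no overlap. Most of this sum came from the keratin genes KRT18, KRT8 and KRT7, by far the brightest of the 14. With SDS3 knockdown the means of KRT18 and KRT8 went from 14.95 to 14.70 and from 14.22 to 13.87. KRT7 went the other way, from 14.38 to 14.62. The dimmer markers, among them the lung genes, weigh little in the sum. The summed intensity of 8 endothelial markers was 935 to 974 in SDS3 controls and 818 to 862 after SDS3 knockdown, where ESAM fell by 0.82, and that of 8 leukocyte markers 588 to 652 and 577 to 609.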
